A study of Mus musculus with 10 samples.

Results

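The mitochondrial ribosomal proteins are the nuclear-encoded proteins of the ribosome inside mitochondria. The genes were taken by symbol, as protein-coding genes named Mrpl or Mrps followed by a number and at most 1 letter, which gave 77 of the 43629 genes in the count tables. Of these, 48 are named for the large subunit (Mrpl) and 29 for the small subunit (Mrps). Names and structure do not match throughout, since Mrps18a and Mrps30 sit in the large subunit of the mammalian particle. Mrps36 is now known as a part of the alpha-ketoglutarate dehydrogenase complex. They are counted here by symbol all the same. Mrpl33 also fits the rule but was not analysed here.

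RNA was sequenced from skeletal muscle of male C57BL/6 mice aged 6 weeks, after 2 weeks on a high-fat diet (HFD). The groups were IP of KO muscle (2 libraries), IP of WT muscle (2 libraries), total RNA of KO muscle (3 libraries) and total RNA of WT muscle (3 libraries). IP is RNA recovered by immunoprecipitation with a home-made antibody against IMP2, an RNA-binding protein encoded by Igf2bp2. The KO genotype is labelled IMP2 null, and the series describes a knockout specific to muscle. The sources used here do not name the Cre driver, the deleted exons or the muscle taken, nor whether libraries came from separate animals. The p-values therefore measure the spread between libraries, which may be technical.

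Mitochondria keep a ribosome of their own, which makes the few proteins encoded in mitochondrial DNA, all of them subunits of the oxidative phosphorylation complexes. Its RNA comes from mitochondrial DNA, while every protein of the particle is encoded in the nucleus, translated in the cytosol and imported. The small subunit reads the messenger RNA, and the large subunit joins the amino acids and feeds the chain to the inner membrane. Skeletal muscle is rich in mitochondria, and inherited defects of several of these proteins in humans cause combined deficiencies of oxidative phosphorylation.

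Library sizes ran from 917462 to 4037480 counts in KO IP, from 2159115 to 2547124 in WT IP, from 9691580 to 10739792 in KO total RNA, and from 12299030 to 14809788 in WT total RNA. Igf2bp2 had 9.81 and 6.19 CPM (counts scaled to a common library size) in KO IP, against 13.0 and 1.57 in WT IP. In total RNA it had 2.17, 1.78 and 1.96 CPM in KO, against 2.36, 2.66 and 3.90 in WT. The IP groups overlapped and the total RNA groups did not, but whole-gene counts check the labels only if the deleted exons hold many of the reads. Muscle fibre markers (10 genes) summed to 75593 to 108103 CPM in IP. In total RNA they summed to 207205 to 223435 CPM in KO, above the 137550 to 199575 CPM in WT without overlap. KO total RNA library 1 held pancreatic islet transcripts (2074 CPM over 7 genes, where no other total RNA library exceeded 1.96), and WT total RNA library 2 held brown fat transcripts (490.0 CPM over 4 genes). The IP libraries also held both, with 48.2 to 424.0 CPM of islet and 27.3 to 184.9 CPM of brown fat transcripts. WT total RNA library 3 was low in fibre markers (137550 CPM) and high in slow fibre markers (404.5 CPM over 6 genes, where the rest of the total RNA had 40.0 to 248.5). All 37 genes encoded in mitochondrial DNA, the ribosomal RNAs of the particle among them, were at 0 counts in every library. The part of these differences between libraries in the results was not tested, except by leaving libraries out.

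The promoters of many members held motifs known from nuclear genes of mitochondrial proteins. RefSeq promoters (GRCm38.p6, from 250 bases before to 50 bases after the annotated start) matched 68 of the 77 members. They were searched on both strands for 4 motifs, chosen with these promoters at hand. CGCANGCG is the core of the site of NRF1, CCGGAAG that of ETS factors such as GABPA and AANATGGCG that of YY1, each a factor known to act on such genes. TATAAA is the TATA box. The 5 promoters below show the kinds of match among members that later results turn on, with every match on either strand in capitals.
Mrpl12: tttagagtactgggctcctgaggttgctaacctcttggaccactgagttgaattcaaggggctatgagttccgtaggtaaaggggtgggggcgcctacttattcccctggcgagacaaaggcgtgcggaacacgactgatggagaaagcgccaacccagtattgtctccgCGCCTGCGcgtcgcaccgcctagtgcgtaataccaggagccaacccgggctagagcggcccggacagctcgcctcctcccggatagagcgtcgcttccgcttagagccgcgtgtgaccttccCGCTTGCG
Mrps27: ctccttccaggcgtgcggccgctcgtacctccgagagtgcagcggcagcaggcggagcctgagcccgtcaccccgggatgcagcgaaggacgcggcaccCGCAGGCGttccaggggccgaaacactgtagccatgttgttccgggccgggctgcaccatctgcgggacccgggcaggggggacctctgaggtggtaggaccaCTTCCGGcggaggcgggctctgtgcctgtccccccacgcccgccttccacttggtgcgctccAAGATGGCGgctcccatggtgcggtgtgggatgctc
Mrpl22: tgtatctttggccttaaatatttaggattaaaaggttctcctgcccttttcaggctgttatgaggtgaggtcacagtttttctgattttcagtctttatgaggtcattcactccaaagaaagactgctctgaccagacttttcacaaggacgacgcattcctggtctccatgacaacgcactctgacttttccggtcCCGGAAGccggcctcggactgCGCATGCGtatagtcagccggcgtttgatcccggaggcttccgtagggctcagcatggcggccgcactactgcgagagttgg
Mrps18b: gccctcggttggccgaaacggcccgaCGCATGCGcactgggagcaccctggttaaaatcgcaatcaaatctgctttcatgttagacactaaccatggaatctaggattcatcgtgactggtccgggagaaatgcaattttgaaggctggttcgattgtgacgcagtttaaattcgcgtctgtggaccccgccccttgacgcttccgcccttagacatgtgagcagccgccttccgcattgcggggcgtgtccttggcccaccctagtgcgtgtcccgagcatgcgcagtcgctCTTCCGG
Mrpl52: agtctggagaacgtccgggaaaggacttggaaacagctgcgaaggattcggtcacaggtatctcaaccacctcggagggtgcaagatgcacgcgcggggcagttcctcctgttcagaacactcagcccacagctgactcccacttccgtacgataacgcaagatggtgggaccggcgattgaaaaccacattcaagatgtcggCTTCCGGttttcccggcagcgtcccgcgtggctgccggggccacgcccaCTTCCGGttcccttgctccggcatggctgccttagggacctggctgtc
The promoter of Mrpl12 (chr11:120484387-120484686 on the plus strand) held 2 NRF1 matches and that of Mrps27 (chr13:99344536-99344835 on the plus strand) held a match to NRF1, ETS and YY1 each. The promoters of Mrpl22 (chr11:58171414-58171713 on the plus strand) and Mrps18b (chr17:35916391-35916690 on the minus strand) held an NRF1 and an ETS match, and that of Mrpl52 (chr14:54426659-54426958 on the plus strand) 2 ETS matches. The last 50 bases of each lie after the start.

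At least 1 of the NRF1, ETS and YY1 motifs was found in 43 of 68 member promoters (63.2%), against 3927 of 16317 promoters of protein-coding genes in the count tables (24.1%). ETS matches were in 24 member promoters (35.3% against 12.4%), NRF1 matches in 20 (29.4% against 11.9%) and YY1 matches in 11 (16.2% against 3.49%). The TATA box went the other way, with 4 member promoters (5.88% against 12.6%). Large and small subunit genes were alike in the share with any of the 3 activator motifs, 64.3% of 42 and 61.5% of 26. These shares are counts of letters and show no binding. The genes set beside the members were not limited to those expressed in muscle or matched for base composition.

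**Figure D1:**
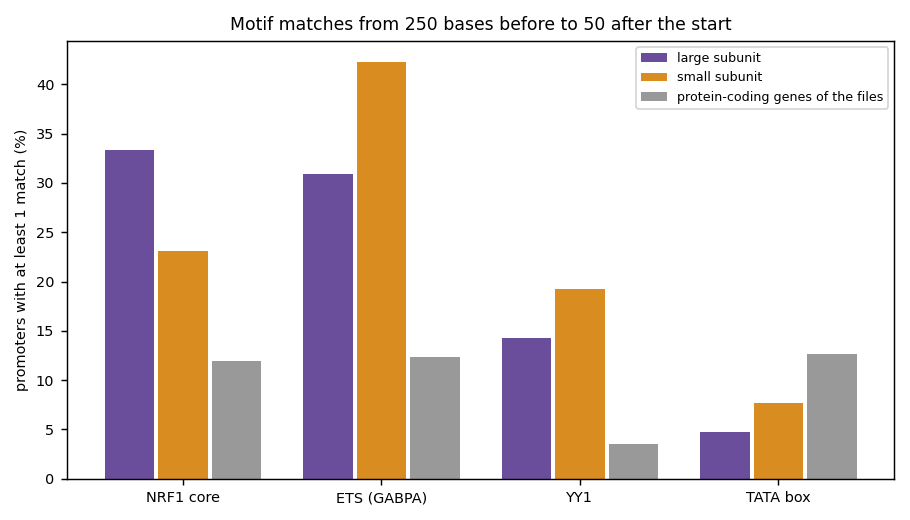
Share of promoters (vertical axis, %) with at least 1 match to each of 4 motifs, for large subunit genes (42), small subunit genes (26) and all protein-coding genes in the count tables with a promoter (16317). Bars of both subunits stand above the grey bars for NRF1, ETS and YY1 and below them for the TATA box.

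The members also lay close to other genes. They were spread over 17 chromosomes, with 11 on chromosome 11 and 8 on chromosome 17. Within 1000 bases of their start, 33 of 77 (42.9%) had the start of another protein-coding gene on the other strand, against 2384 of 21951 protein-coding genes of the annotation, expressed in muscle or not (10.9%). In 1 case both were members, Mrpl46 and Mrps11, with 412 bases between their starts. Other neighbours also act in mitochondria, among them Ndufs6 (29 bases from Mrpl36) and Ndufb5 (615 bases from Mrpl47), which encode subunits of complex I. Sars2 (172 bases from Mrps12) encodes the mitochondrial seryl-tRNA synthetase, and Twnk (779 bases from Mrpl43) the helicase of mitochondrial DNA. Overlap limits the counts of some members, since reads in exons shared by 2 genes may be discarded or given to the partner, and the sources used here do not give the strand setting. In 18 members over 10% of the exon bases also lay in exons of another gene, with 88.0% for Mrpl53, 77.8% for Mrps34 and 69.8% for Mrps25.

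Levels per kb of annotated exon sequence spanned a wide range in total RNA. The small subunit gene Mrps28 was highest in WT total RNA, with 73.0 ± 4.98 CPM per kb in WT and 87.0 ± 29.5 in KO (SD, n = 3 each). It was followed in WT by Mrpl12, the stalk protein that also binds the mitochondrial RNA polymerase (71.6 ± 25.7 CPM per kb in KO and 65.0 ± 19.7 in WT), and by Mrpl2, a core protein of the large subunit (71.5 ± 12.2 in KO and 63.0 ± 10.5 in WT). Mrps21 had 75.98 ± 30.2 CPM per kb in KO and 58.5 ± 8.42 in WT, and Mrps23 58.5 ± 11.3 in KO and 58.4 ± 1.36 in WT. Neighbours in the WT order overlapped in their 3 libraries throughout, except at the foot of the list. Next among the large subunit genes came Mrpl34 (58.9 CPM per kb in KO and 55.8 in WT), Mrpl28 (46.8 and 48.3) and Mrpl14 (48.0 and 47.4), and among the small subunit genes Mrps7 (40.6 and 36.9) and Mrps12, a protein of the decoding centre (36.4 and 34.2).

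At the foot, Mrpl53 had 1 count in KO total RNA library 1 and in WT total RNA library 3 and 0 in every other library. At these depths a 0 allows levels of up to 0.203 to 0.310 CPM for total RNA and 0.743 to 3.27 CPM for the IP (3 counts of the total), for counting error only. Mrpl23, whose gene neighbours H19 and Igf2, had 0.314 ± 0.0927 CPM per kb in KO total RNA and 0.329 ± 0.0395 in WT total RNA. Above it stood Mrps10 (2.87 CPM per kb in KO and 2.67 in WT), Mrps35 (2.65 and 2.86), Mrps33 (3.602 and 3.45) and, for the large subunit, Mrpl19 (3.77 and 3.89). The annotated exons include long and retained-intron transcripts, so the order depends on the length used. Per kb of the principal transcript, Mrpl42 was highest in WT total RNA (236.6 CPM per kb in KO and 213.9 in WT), followed by Mrps21 (115.1 and 88.6). The orders by the 2 lengths had a Spearman correlation of 0.883 across members in WT total RNA.

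The median level per kb in total RNA was higher for the large than for the small subunit. The large subunit genes, 48 against 29, also took a larger share of a library than the small subunit genes. They made up 0.255% to 0.268% of counts in KO IP, 0.285% to 0.294% in WT IP, 0.175% to 0.219% in KO total RNA and 0.208% to 0.220% in WT total RNA. The small subunit genes made up 0.126% to 0.134% in KO IP, 0.133% to 0.137% in WT IP, 0.0774% to 0.104% in KO total RNA and 0.0952% to 0.104% in WT total RNA. The median large subunit gene had 16.9, 16.6 and 23.1 CPM per kb in KO total RNA, against 19.3, 19.5 and 17.0 in WT total RNA. The median small subunit gene had 7.45, 7.53 and 11.0 CPM per kb in KO total RNA, against 8.50, 8.57 and 7.80 in WT total RNA. In both sets, KO library 3 was above all other total RNA libraries and KO libraries 1 and 2 below them. Per kb of the principal transcript, the large subunit median was 28.1 CPM in KO total RNA and 26.6 in WT total RNA. The small subunit median by that length was 18.3 in KO and 15.6 in WT.

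**Figure D2:**
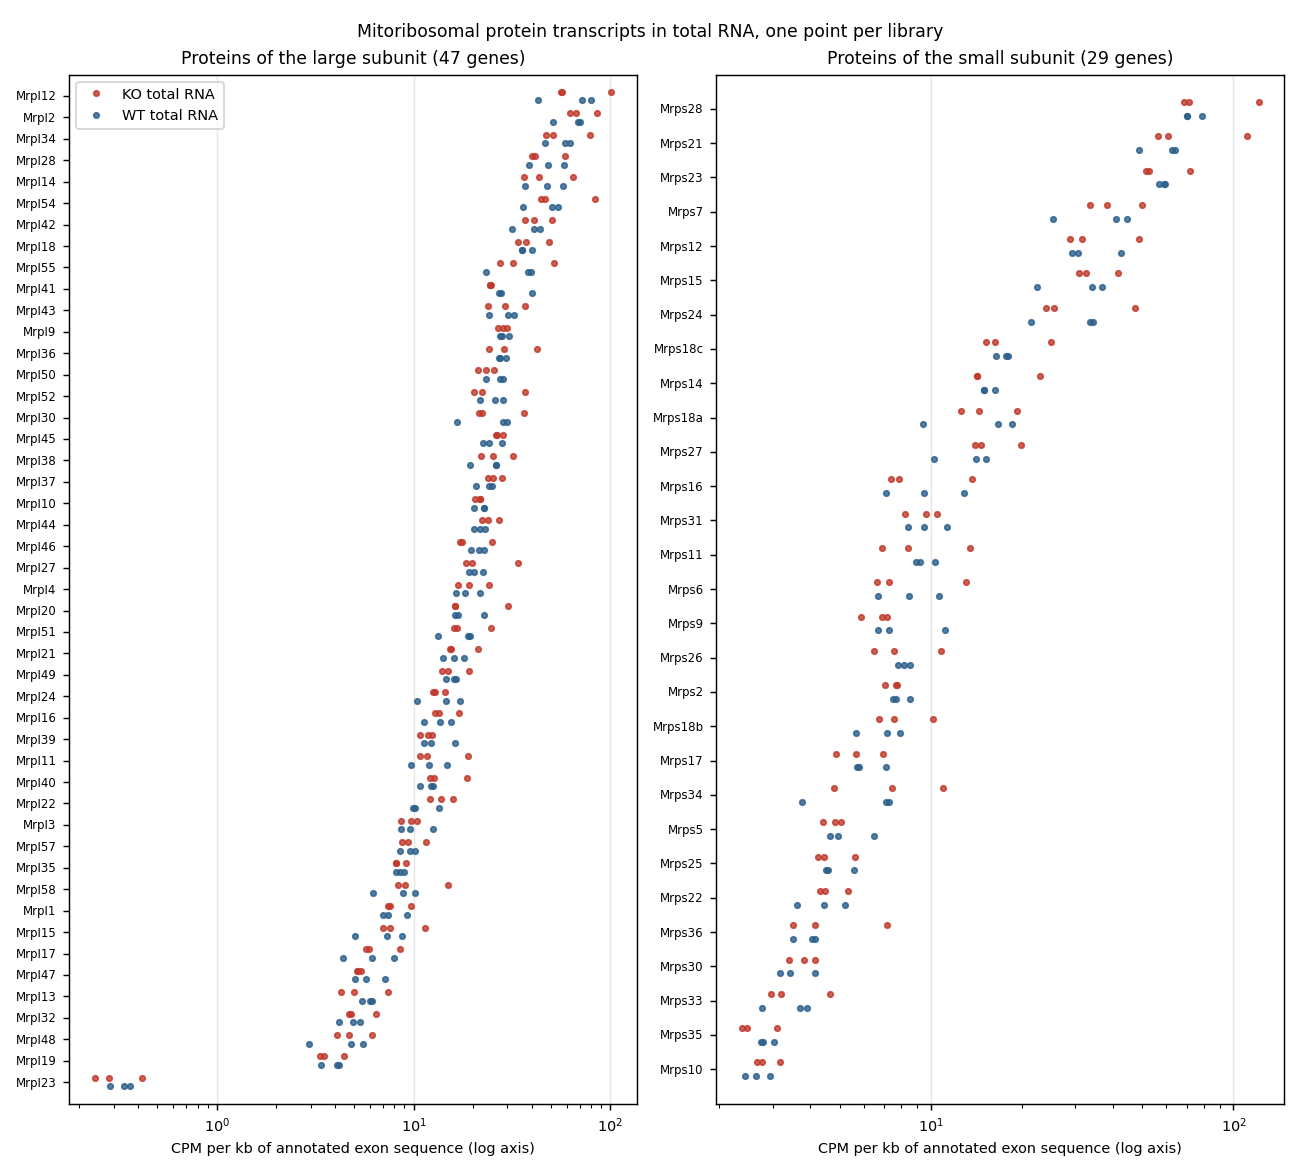
Level of each member in total RNA (horizontal log axis, CPM per kb of annotated exon sequence), large subunit genes left and small subunit genes right, ordered by the mean in WT. Each point is a library (3 KO above, 3 WT below). Mrpl53, at 0 or 1 count, is not drawn. WT means run from 0.329 for Mrpl23 to 73.0 CPM per kb for Mrps28, and the KO and WT points of a gene overlap except for Mrpl41.

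The comparison of KO with WT total RNA asks whether loss of IMP2 went with a change in the level of these transcripts. No member passed the test. By edgeR's quasi-likelihood F test with Benjamini-Hochberg adjustment, 0 of 76 tested members and 0 of 13169 genes (0%) had an adjusted p under 0.05. At an unadjusted p under 0.05 there were 0 members, against 4.32% of all genes (2.03% higher and 2.29% lower). DESeq2 called 5 genes and 0 members. The log2 difference, KO minus WT, was above 0 for 33 and below 0 for 14 large subunit genes, with a median of 0.10. It was above 0 for 20 and below 0 for 9 small subunit genes, with a median of 0.07, while the median of all genes was -0.01. These signs rested on KO library 3, which was the highest of the 6 libraries for 62 of 76 members: without it, 59 of 76 members were below 0, where the full fit had 23. Without WT library 3, 37 were below 0, and without KO library 1, 13. With library size alone as the scale, which moved the median of all genes to -0.23, 65 of 76 were below 0.

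The differences of single members in total RNA were small beside their errors. Mrpl41, a large subunit protein, was the lowest at -0.38 ± 0.18 (SE, adjusted p = 0.897). It had 20.2, 20.3 and 20.3 CPM in KO, against 23.1, 22.7 and 33.6 in WT. All KO libraries lay below all WT libraries. Mrpl41 was the only member of the 76 in which the groups did not overlap, where 9.61% of all genes did not (4.76% higher and 4.85% lower in KO). Mrps21 was the highest at 0.37 ± 0.26 (adjusted p = 0.897), with 41.7, 38.8 and 76.9 CPM in KO, against 43.0, 44.4 and 34.0 in WT. Its KO mean was raised by library 3 alone. The other members with the smallest p were Mrpl22, Mrpl40 and Mrpl58 (0.31 ± 0.19, 0.29 ± 0.20 and 0.36 ± 0.26) for the large subunit, and Mrps9, Mrps27 and Mrps36 (-0.34 ± 0.21, 0.29 ± 0.20 and 0.33 ± 0.29) for the small subunit, with overlapping groups in each.

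The IP comparison of KO with WT asks which RNAs came down with the antibody to a different extent when IMP2 was lost. No member passed here either, and 55 of 72 had a lower fitted level in KO IP. Markers of other cell types also moved with genotype in these libraries. Fibroblast markers (4 genes) summed to 7071 and 6834 CPM in KO IP, against 3990 and 2674 in WT IP, and erythroid markers (4 genes) to 548 and 928 CPM in KO IP, against 169.5 and 311 in WT IP. Endothelial markers (4 genes) summed to 554 and 977 CPM in KO IP, against 464 and 436 in WT IP, and Schwann cell markers (3 genes) to 233 and 278 CPM in KO IP, against 129 and 172 in WT IP. All of these were higher in KO IP without overlap, while muscle fibre markers summed to 99285 and 75593 CPM in KO IP, against 100563 and 108103 in WT IP. Every gene of these lists had a count in each IP library, macrophage and adipocyte sums overlapped between genotypes, and the part of these differences in the members' values was not tested. In bulk RNA, fewer cells of a type and less RNA per cell cannot be told apart. Of 72 tested members 0 passed, as did 0 of 10730 genes (0%), with Mrpl23, Mrpl53, Mrps18b, Mrps34 and Mrps36 below the filter on low counts. The count over all genes was not stable: it was 103 without a filter on low counts and 28 with the replicate block. It was also above 0 when any IP library was left out, which leaves 1 library in a group. DESeq2 called 57 genes and 0 members, and gave no adjusted p for 63 of the 72. The log2 difference, KO minus WT, was above 0 for 10 and below 0 for 36 large subunit genes, with a median of -0.37. It was above 0 for 7 and below 0 for 19 small subunit genes, with a median of -0.22, against 0.01 for all genes. At an unadjusted p under 0.05, 11 members were lower and 2 higher in KO IP, where 10.5% of all genes passed that mark, 4.83% lower and 5.68% higher. These 13 members became 6 with DESeq2, 7 with library size alone and 8 with the replicate block. They were also fewer without WT IP library 2 or KO IP library 2, which leaves 1 library in a group. Both KO libraries were below both WT libraries for 34 of 72 members (47.2%, against 20.3% of all genes) and above them for 7 (9.72%, against 20.8%). In all, groups did not overlap for 41.1% of genes. With library size alone, 48 of 72 members were below 0 while the median of all genes was 0.16.

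Mrpl47 is the large subunit counterpart of a bacterial protein at the exit of the peptide tunnel. It had 62.7 and 58.4 CPM in KO IP, against 27.2 and 32.4 in WT IP, a log2 difference of 1.01 ± 0.28 (adjusted p = 0.242). Mrpl41 was also higher, with 23.8 and 30.7 CPM in KO IP, against 17.3 and 13.4 in WT IP (0.86 ± 0.37, adjusted p = 0.445). Mrpl22, a protein that lines the tunnel, was the lowest at -2.07 ± 0.69 (adjusted p = 0.294), with 1.08 and 3.92 CPM in KO IP, against 7.97 and 18.2 in WT IP. These rested on 1 and 17 counts in KO IP, against 17 and 42 in WT IP. Without WT IP library 1, which leaves 1 WT IP library, the log2 difference of Mrpl22 was -2.52. Mrpl22 did not pass under any alternative that kept all 4 IP libraries.

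The remaining members with the smallest p were lower in KO IP with non-overlapping groups. Mrps28 had 18.4 and 21.2 CPM in KO IP, against 32.3 and 47.5 in WT IP (-0.99 ± 0.33, adjusted p = 0.298). Mrpl2 had 49.7 and 51.2 CPM in KO IP, against 72.6 and 94.2 in WT IP (-0.72 ± 0.26), and Mrpl57 had 40.0 and 26.3 in KO IP, against 47.8 and 66.1 in WT IP (-0.85 ± 0.31). In each the lowest WT library stayed above the highest KO library. The small subunit genes Mrps24, Mrps18a and Mrps35 followed at -0.54 ± 0.25, -0.51 ± 0.24 and -0.51 ± 0.32. Mrpl58, the release factor built into the large subunit, had 36.7 and 29.8 CPM in KO IP, against 50.6 and 51.9 in WT IP (-0.66 ± 0.28).

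**Figure D3:**
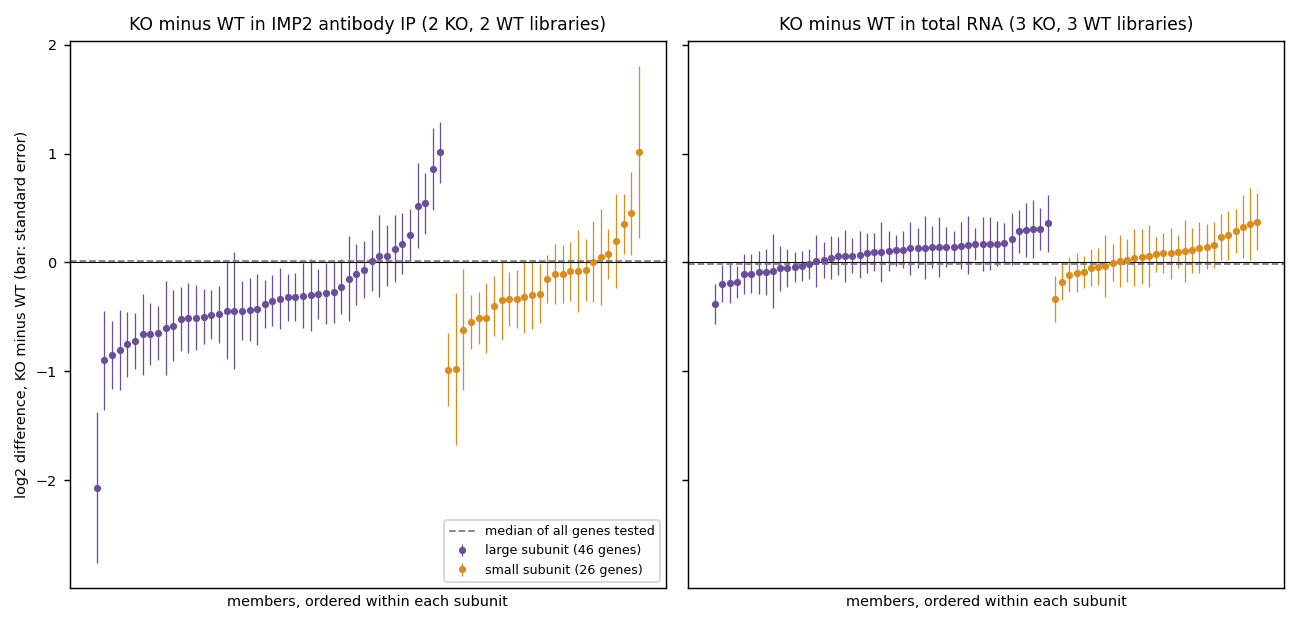
Log2 difference KO minus WT (vertical axis) of each tested member in the IP (left; 46 large and 26 small subunit genes) and in total RNA (right; 47 and 29 genes), with standard errors, ordered within each subunit. The dashed line is the median of all genes tested. In the IP 55 of 72 points lie below 0, and in total RNA 53 of 76 lie above 0 with differences between -0.38 and 0.37.

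IP against total RNA shows which transcripts were more or less frequent in the IP libraries than in the total RNA libraries of the same genotype. In KO muscle, 9 members were higher and 20 lower in the IP (29 of 76, 38.2%), where 36.5% of 14399 genes passed, 17.7% higher and 18.8% lower. At an unadjusted p under 0.05 there were 11 higher and 22 lower, where the shares of all genes were 22.9% and 23.4%. In WT muscle, 16 members were higher and 10 lower (26 of 76, 34.2%), where 37% of genes passed, 17.6% higher and 19.4% lower. There, 24 were higher and 15 lower at an unadjusted p under 0.05, where the shares of all genes were 22.3% and 24.3%. The share of members that passed was thus near that of all genes in both genotypes. The median log2 difference, IP minus total RNA, was -0.22 in KO and 0.11 in WT for the large subunit and 0.02 in KO and 0.30 in WT for the small subunit, against 0.03 in KO and -0.05 in WT for all genes. Counts in KO moved with the libraries: 2 higher and 8 lower without KO IP library 2, 3 higher without KO IP library 1, KO total RNA library 1 or KO total RNA library 2, and 15 higher without KO total RNA library 3. In WT, 9 were higher without WT IP library 2, and 8 were higher and 6 lower without the 3 total RNA libraries that stood apart (KO library 1 and WT libraries 2 and 3), an alternative chosen after the data were seen.

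KO and WT were measured in separate libraries, and 15 members passed in the same direction in both. Mrpl28, Mrpl30, Mrpl52, Mrpl54, Mrps6, Mrps7 and Mrps26 were higher in both, which is 77.8% of the members higher in KO and 43.8% of those higher in WT. Mrpl1, Mrpl39, Mrpl44, Mrps5, Mrps14, Mrps18b, Mrps31 and Mrps34 were lower in both, 40% of those lower in KO and 80% of those lower in WT. Over all genes, the genes higher in both were 60.5% of those higher in KO and 60.9% of those higher in WT, and the genes lower in both 71.3% of those lower in KO and 68.9% of those lower in WT. None passed in opposite directions, and 36 of 76 passed in neither. The log2 differences of the 76 members correlated with a Pearson r of 0.835 between KO and WT (0.641 over 14399 genes), a description over genes that share a fit and a scale.

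Of the members higher in the IP, Mrpl52 passed under all 17 alternatives in both genotypes. It had 71.1 and 62.0 CPM in KO IP, against 24.7, 22.5 and 41.1 in KO total RNA, a 2.24-fold rise (log2 1.16 ± 0.26, adjusted p = 0.00320). WT IP had 86.6 and 68.2 CPM, against 28.9, 31.6 and 24.1 in WT total RNA, a 2.75-fold rise (1.46 ± 0.25, adjusted p = 0.000534). Every IP library was above every total RNA library of its genotype. Mrpl54 had 102 and 87.8 CPM in KO IP, against 38.2, 36.6 and 69.3 in KO total RNA (0.97 ± 0.27, adjusted p = 0.0133; up to 0.0735 and lost without KO IP library 1 or 2 or KO total RNA library 1 or 2). In WT it had 113 and 129 CPM in IP, against 41.5, 44.9 and 29.9 in total RNA (1.64 ± 0.27, adjusted p = 0.000376), a 3.12-fold rise and the largest among members in WT. Mrps6, a protein of the small subunit platform, had 36.5 and 28.0 CPM in KO IP, against 10.2, 11.2 and 20.1 in KO total RNA (1.19 ± 0.33, adjusted p = 0.0114; 0.0649 without KO IP library 1 and 0.0588 without KO IP library 2). Mrps6 in WT had 31.5 and 46.4 CPM in IP, against 13.0, 16.4 and 10.3 in total RNA (1.56 ± 0.31, adjusted p = 0.00148). KO total RNA library 3 was the highest total RNA library for all 3 genes. Of the exon bases of Mrps6, 19.9% also lay in exons of other genes on the same strand, and the part of this overlap was not tested. Mrpl30, Mrpl28 and Mrps26 followed, with rises in WT of 1.34 ± 0.27, 1.23 ± 0.22 and 1.12 ± 0.22 under every alternative and in KO of 0.92 ± 0.28, 0.79 ± 0.23 and 0.75 ± 0.23, lost in 4 or 5 alternatives each.

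The largest falls in both genotypes were those of the small subunit genes Mrps18b, Mrps31 and Mrps34. Mrps31 had 6.73 and 6.22 CPM in KO IP, against 27.03, 31.8 and 34.5 in KO total RNA, 4.88-fold lower (-2.29 ± 0.27, adjusted p = 4.75e-05). In WT it had 10.1 and 9.74 CPM in IP, against 31.1, 27.7 and 37.3 in total RNA, 3.23-fold lower (-1.69 ± 0.25, adjusted p = 0.000183). Mrps18b had 2.88 and 2.28 CPM in KO IP, against 15.7, 14.0 and 21.3 in KO total RNA (-2.80 ± 0.39, adjusted p = 0.000122), and 1.26 and 1.95 in WT IP, against 16.5, 15.0 and 11.9 in WT total RNA (-3.15 ± 0.41, adjusted p = 7.86e-05). The fall of Mrps18b and Mrps31 passed under all 17 alternatives in both genotypes, with Mrps18b resting on 3 and 11 counts in KO IP and 3 and 5 in WT IP. Mrps34, in humans a gene of Leigh syndrome, had 1.92 and 0.622 CPM in KO IP, against 15.4, 9.89 and 22.7 in KO total RNA (-4.15 ± 0.67, adjusted p = 0.000337; 0.0573 without KO IP library 2). Mrps34 in WT had 1.26 and 2.34 CPM in IP, against 14.7, 15.0 and 7.75 in total RNA (-2.77 ± 0.57, adjusted p = 0.00195). Mrps34 rested on 2 and 3 counts in KO IP and 3 and 6 in WT IP, and of its exon bases 77.8% are shared with another gene, as are 30.5% of those of Mrps18b. Reads left out as ambiguous between genes were 5.48% to 6.03% in the IP libraries, against 3.30% to 3.95% in the total RNA libraries. The part of shared exons and ambiguous reads in the falls was not tested.

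**Figure D4:**
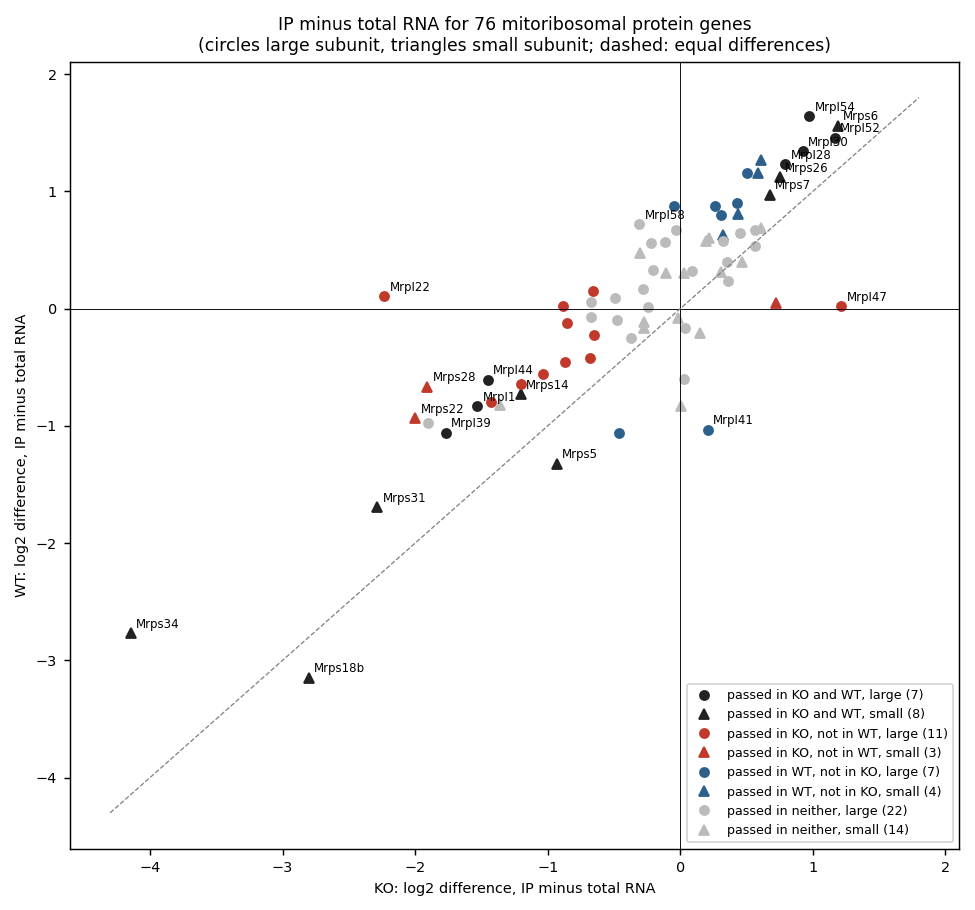
Log2 difference IP minus total RNA of 76 members in KO (horizontal axis) and in WT (vertical axis), circles for the large and triangles for the small subunit, coloured by the genotype in which the member passed. Points run along the dashed line of equal differences, from Mrps34 and Mrps18b at lower left to Mrpl54, Mrps6 and Mrpl52 at upper right, with more points above the line than below it.

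In KO, the other falls that passed under every alternative were those of Mrpl22, Mrpl39, Mrpl44 and Mrps28. Mrpl39 had 7.69 and 9.13 CPM in KO IP, against 27.3, 30.2 and 31.5 in KO total RNA (-1.77 ± 0.27, adjusted p = 0.000215), and 16.0 and 16.4 in WT IP, against 28.6, 31.2 and 41.4 in WT total RNA (-1.06 ± 0.24, adjusted p = 0.00328; 0.100 in the least favourable alternative). Mrps28, the highest member per kb of annotated exon sequence in total RNA, had 16.3 and 19.1 CPM in KO IP, against 53.9, 55.7 and 94.8 in KO total RNA, 3.76-fold lower (-1.91 ± 0.30, adjusted p = 0.000278). In WT it had 29.0 and 42.9 CPM in IP, against 61.6, 54.8 and 55.0 in total RNA (-0.67 ± 0.27, adjusted p = 0.0643). Its rank per kb of annotated exon among the 77 members was 25 in KO IP and 18 in WT IP, against 1 in total RNA of both genotypes. Per kb of the principal transcript its rank was 37 in KO IP and 24 in WT IP, against 4 in KO total RNA and 5 in WT total RNA. Mrpl1, a large subunit protein, fell by 1.53 in KO on the log2 scale (adjusted p = 0.000952, lost in 1 alternative). Mrpl44, a large subunit protein whose defects in humans cause cardiomyopathy, differed by -1.45 ± 0.22 in KO (adjusted p = 0.000245) and -0.60 ± 0.20 in WT (adjusted p = 0.0310, lost under 9 of 17 alternatives). In WT, Mrps5 passed under every alternative (-1.32 ± 0.27, adjusted p = 0.00169), and in KO it was lost under 2 (-0.93 ± 0.27, adjusted p = 0.0142).

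Some members passed in WT and not in KO. Mrpl12 had 151 and 145 CPM in KO IP, against 86.4, 87.5 and 155 in KO total RNA (0.43 ± 0.29, adjusted p = 0.263), where the third total RNA library lay above both IP libraries. WT IP had 179 and 192 CPM, against 111, 123 and 65.5 in total RNA (0.90 ± 0.29, adjusted p = 0.0244). That call was lost without WT IP library 1 or 2, without WT total RNA library 3, and without the 3 total RNA libraries that stood apart (adjusted p up to 0.155). Mrps24 rose 2.41-fold in WT under every alternative (1.27 ± 0.29, adjusted p = 0.00374) and differed by 0.61 ± 0.30 in KO (adjusted p = 0.129). Mrps27, a protein with pentatricopeptide repeats, rose in WT (0.80 ± 0.25, adjusted p = 0.0195, lost without WT IP library 1 and without the 3 libraries that stood apart), as did Mrps18a (1.16 ± 0.27, adjusted p = 0.00407, lost without WT IP library 2). In KO neither passed. Mrps27 had 40.4 and 49.6 CPM in KO IP, against 29.2, 30.7 and 41.7 in KO total RNA. Mrps18a had 89.4 and 82.4 CPM in KO IP, against 53.3, 46.3 and 70.9 in KO total RNA. In the test between genotypes described below, Mrps27 differed by -0.37 ± 0.35 (adjusted p = 0.679) and Mrps18a by -0.57 ± 0.39 (adjusted p = 0.565). Among the relatives of Mrps18a, Mrps18c differed by -0.27 ± 0.32 in KO and -0.17 ± 0.31 in WT. Of the 3 Mrps18 genes, Mrps18a thus passed as higher in WT IP, Mrps18b as lower in IP of both genotypes, and Mrps18c did not pass.

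Whether these differences themselves differed between genotypes was tested as an interaction, (IP minus total RNA in KO) minus (IP minus total RNA in WT). No member passed among 76, and 1 of 14399 genes did (0.00694%). Without a filter on low counts 263 genes passed, and with library size alone or the replicate block 0 did. DESeq2 called 17 genes and 0 members. The interaction was above 0 for 7 and below 0 for 40 large subunit genes, with a median of -0.49. It was above 0 for 8 and below 0 for 21 small subunit genes, with a median of -0.37, against 0.02 for all genes. At an unadjusted p under 0.05, 7 members were lower and 2 higher, where 11.8% of all genes passed that mark, 5.38% lower and 6.45% higher. These 9 members became 17 without KO IP library 1, 17 without WT IP library 1 and 15 without a filter on low counts. With library size alone, which moved the median of all genes to 0.40, the medians were -0.11 for the large and 0.02 for the small subunit and 42 of 76 members were below 0.

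The members with the smallest p in the interaction were Mrpl22, Mrpl47, Mrpl41, Mrpl2 and Mrps28. Mrpl22 differed by -2.34 ± 0.58 (adjusted p = 0.342), with 0.961 and 3.53 CPM in KO IP, against 13.5, 12.0 and 15.6 in KO total RNA, and 7.15 and 16.4 in WT IP, against 13.2, 9.80 and 9.98 in WT total RNA. It fell in the KO IP (-2.23 ± 0.45, adjusted p = 0.00174), and its WT groups overlapped (0.11 ± 0.35, adjusted p = 0.840). Without a filter on low counts its interaction passed (adjusted p = 0.00471), and over the 16 alternatives the adjusted p ran from 0.00471 to 0.884. Mrpl47 differed by 1.19 ± 0.30 (adjusted p = 0.342), with 55.7 and 52.5 CPM in KO IP, against 22.8, 23.8 and 23.0 in KO total RNA, and 24.4 and 29.2 in WT IP, against 22.3, 25.2 and 31.8 in WT total RNA. It rose 2.32-fold in the KO IP under every alternative (1.21 ± 0.21, adjusted p = 0.000557), and WT IP lay within the range of WT total RNA (0.02 ± 0.22). Of the exon bases of Mrpl47, 24.2% also lay in exons of other genes, and the part of this overlap was not tested. Mrpl41, which fell in the WT IP (-1.03 ± 0.26, adjusted p = 0.00671; 0.0540 without WT IP library 2 and 0.104 without the 3 libraries that stood apart), with 0.21 ± 0.25 in KO (adjusted p = 0.536), differed by 1.24 ± 0.36 and Mrps28 by -1.24 ± 0.39 (adjusted p = 0.342 each). Mrpl2 followed at -0.91 ± 0.31, and among the small subunit genes Mrps21 (-0.78 ± 0.41), Mrps9 (0.67 ± 0.37) and Mrps22 (-1.06 ± 0.59). Mrpl41, Mrpl47 and Mrps28 did not pass as an interaction under any of the 16 alternatives.

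**Figure D5:**
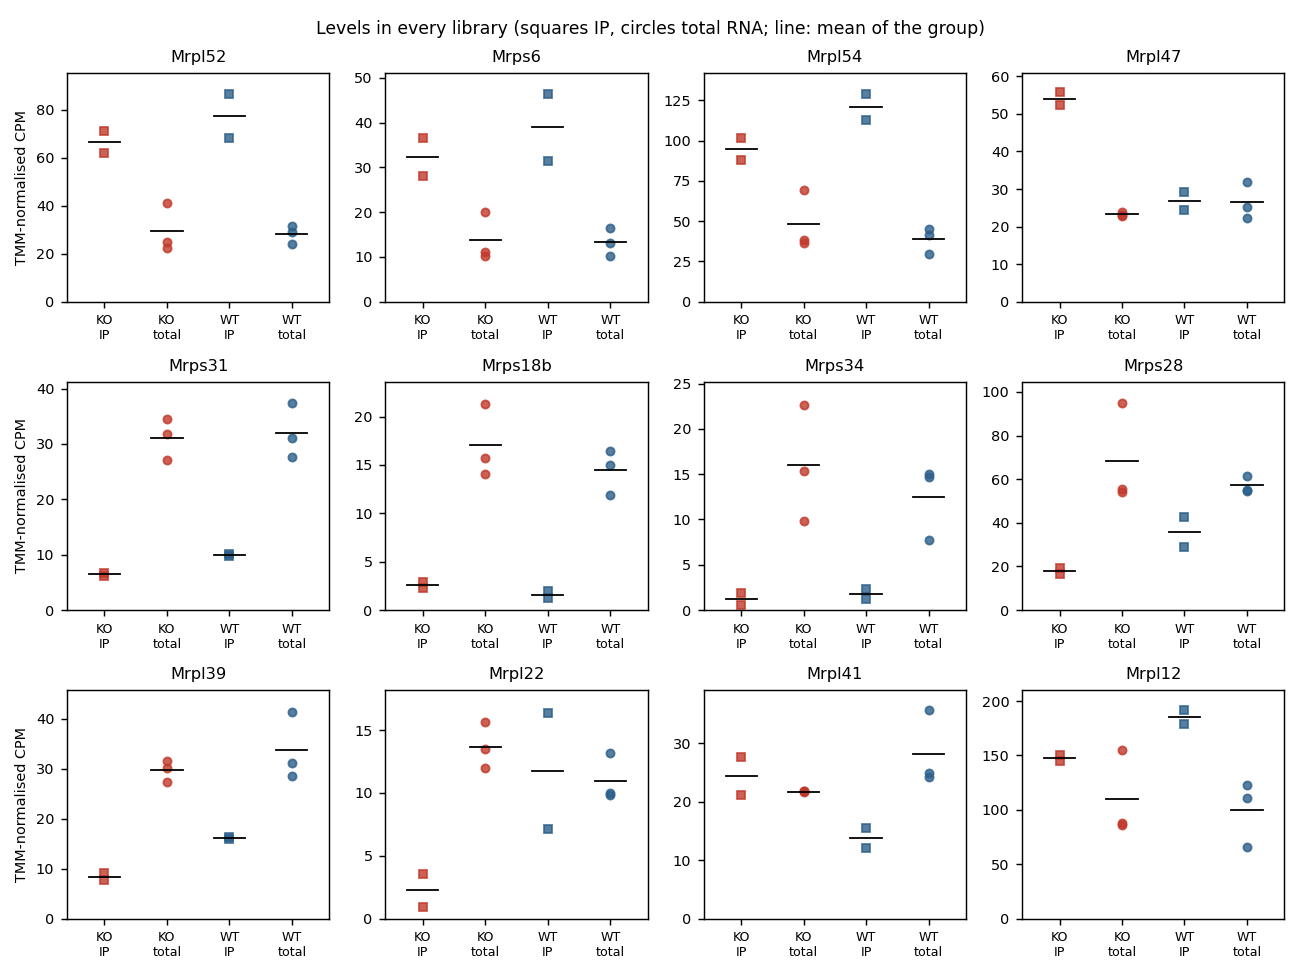
TMM-normalised CPM (vertical axis) of 12 members in every library, squares for IP and circles for total RNA, with the group mean as a line. Mrpl52, Mrps6 and Mrpl54 are higher in IP than in total RNA of both genotypes, Mrps31, Mrps18b and Mrps34 lower in both, and Mrpl47 is above total RNA in KO IP, where its 2 libraries stand at 55.7 and 52.5.

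Members with other known roles, except Mrps22, showed no difference that passed in any comparison. Mrpl3, near the peptidyl transferase centre, differed between KO and WT by 0.54 ± 0.28 in the IP (adjusted p = 0.509), and between IP and total RNA by 0.03 ± 0.24 in KO and -0.60 ± 0.24 in WT (adjusted p = 0.0621). Mrpl11, at the base of the stalk that receives elongation factors, differed by -0.04 ± 0.30 in KO and 0.67 ± 0.28 in WT (adjusted p = 0.0777). Mrps12 differed by 0.19 ± 0.27 in KO and 0.57 ± 0.26 in WT, Mrps16 by 0.61 ± 0.30 and 0.69 ± 0.29, Mrps30 by -0.28 ± 0.27 and -0.11 ± 0.26, and Mrps35 by -0.11 ± 0.23 and 0.30 ± 0.21. Mrps36 differed by -1.36 ± 0.54 in KO (adjusted p = 0.0605, under 0.05 in 5 alternatives) and -0.82 ± 0.51 in WT. Mrpl23, at 2 and 0 counts in KO IP and 2 and 2 in WT IP, was too sparse to compare. An exception to the set was Mrps22, of which human defects cause combined oxidative phosphorylation deficiency: it was lower in KO IP (-1.999 ± 0.44, adjusted p = 0.00313; 0.0703 without KO IP library 2) and differed by -0.94 ± 0.39 in WT (adjusted p = 0.0708).

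Genes that work with the mitoribosome were read beside the members. Between KO and WT, no gene of any such list passed in the IP or in total RNA. Between KO and WT IP the median log2 difference was 0.15 for 15 translation factors (10 above and 5 below 0), 0.04 for 20 genes of mitoribosome assembly and rRNA modification (10 and 10), -0.08 for 19 mitochondrial tRNA synthetases and amidotransferase subunits (9 and 10), and 0.43 for 10 genes of mitochondrial transcription and RNA processing (8 and 2). The median was -0.06 for 10 genes chosen as marks of mitochondrial content (4 above and 6 below 0) and 0.06 for 9 regulators of mitochondrial genes (6 and 3). It was -0.22 for 5 mitoribosome proteins outside the symbol rule (1 above and 4 below 0). It was lower, and on the side of the members, for 37 nuclear genes of complex I subunits (3 above and 34 below 0, median -0.49) and for 62 cytosolic ribosomal protein genes (9 and 53, median -0.44). In the interaction the medians were -0.53 for complex I and -0.70 for the cytosolic ribosomal proteins, beside -0.49 for the large and -0.37 for the small mitoribosomal subunit. They were -0.095 for mitochondrial content and 0.21 for the regulators. These lists and their medians are a description, and no list was tested against other genes.

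In IP against total RNA, where 17.7% of all genes were higher and 18.8% lower in KO, and 17.6% higher and 19.4% lower in WT, the lists divided as follows, with no test of a list. Of 10 genes of mitochondrial transcription and RNA processing, 4 were lower in KO IP and 8 in WT IP, and none was higher. They included Polrmt, the mitochondrial RNA polymerase (-1.07 ± 0.21 in KO and -1.64 ± 0.21 in WT), and Tfam, which packs mitochondrial DNA and starts its transcription (-1.77 ± 0.28 and -1.59 ± 0.27). Of 15 translation factors, 7 were lower and 1 higher in KO IP, and 7 lower and 2 higher in WT IP. Lrpprc, a stabiliser of mitochondrial messenger RNA, was lower (-1.98 ± 0.22 in KO and -2.15 ± 0.22 in WT), as was Gfm1, the elongation factor that moves the ribosome along (-2.23 ± 0.28 and -2.07 ± 0.27). Of 23 genes of mitoribosome assembly and rRNA modification, 3 were higher and 4 lower in KO IP, and 2 higher and 7 lower in WT IP. Of 20 tRNA synthetases and amidotransferase subunits, 2 were higher and 7 lower in KO IP, and 2 higher and 8 lower in WT IP. Of 5 mitoribosome proteins outside the symbol rule, 0 were higher and 2 lower in KO IP, and 1 higher and 1 lower in WT IP. Among them Ptcd3, a small subunit protein, fell by 1.57 ± 0.22 in KO and by 2.24 ± 0.23 in WT on the log2 scale. Cytosolic ribosomal proteins had 36 of 72 higher and 4 lower in KO IP and 52 higher and 3 lower in WT IP, at medians of 0.97 in KO and 1.67 in WT. Complex I subunits had 1 of 37 higher and 10 lower in KO IP and 11 higher and 6 lower in WT IP.

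Transcripts of the members were short, with a median principal transcript of 1324 bases over 76 tested members, against 3042 bases over 13116 protein-coding genes of the same fit. Length went with the IP against total RNA difference over all protein-coding genes (Spearman -0.221 in KO and -0.276 in WT). The same correlation was -0.126 in KO and -0.211 in WT among the 47 large subunit genes, and 0.184 in KO and 0.0301 in WT among the 29 small subunit genes. For KO minus WT in the IP, the Spearman correlation with length was 0.132 over 10413 protein-coding genes. It was 0.0526 for 46 large and 0.175 for 26 small subunit genes. The median difference there was -0.063 over 5041 protein-coding genes below the median exon length, against -0.32 over the 72 tested members. In total RNA, the KO minus WT difference of the 29 small subunit genes had a Spearman correlation of -0.634 with length, against -0.110 for the 47 large subunit genes and -0.0624 for 12290 protein-coding genes. KO total RNA library 3 was the highest total RNA library for 62 of 76 members, and the correlation was not computed without it. All these correlations are descriptions over genes that share libraries, and the part of length in the differences was not tested.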

How the data were processed

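The reads were processed with STAR and HTSeq on mm10 (GRCm38), per the submitters' processing notes. Versions, annotation release and strand setting are not given in the sources used here. The deposited files hold the authors' whole-number read counts per Ensembl gene, 1 file for each of 10 libraries. Symbols, biotypes, exon lengths and overlaps came from GENCODE M21 (GRCm38), and promoters from RefSeq. Protein sequences were not used here.

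After the filterByExpr filter and TMM scaling, genes were tested two-sided in edgeR 4.0.16 (R 4.3.3) by its quasi-likelihood F test. The model held group alone, and Benjamini-Hochberg adjustment over all genes was read at 0.05. KO was set against WT in 6 total RNA and in 4 IP libraries; a fit of all 10 gave IP against total RNA and the interaction. CPM are normalised over the libraries of each fit, and levels per kb over all 10. Standard errors come from the F statistic. The test was run on simulated data first.

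Members, lists and tests were chosen with earlier results of these data known. Named were, in each comparison, the 4 large and 4 small subunit genes with the smallest p, those with the highest and lowest levels per kb, members of known role and up to 3 genes of each list with the smallest p; members that passed under every alternative were added after their values were seen. Replicates differed beyond sampling noise (chi-square per degree of freedom 5.90 to 69.8).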

Additional observations from a re-analysis of the deposited data

How the results depend on the processing

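For KO minus WT in total RNA and in the IP, 0 members passed under every alternative with 2 or more libraries per group. The interaction likewise gave 0 members, except 1 lower (Mrpl22) without a filter on low counts. Mrpl22 in the IP without WT IP library 1 is given above as an effect size only, as that fit had 1 WT library. In total RNA the small subunit median (0.07) was -0.14 with library size alone, 0.26 without KO library 1 and WT library 2 together, and -0.13 to 0.18 leaving out a library at a time; the large subunit median (0.10) ranged from -0.07 to 0.20. In the IP the medians with library size alone were -0.23 (large) and -0.0755 (small), and without a library -0.47 to -0.27 and -0.39 to -0.13.

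For IP minus total RNA in KO, library size alone, which moved the median of all genes to 0.47, gave 27 higher and 11 lower, with medians of 0.23 and 0.48. Leaving out a library gave 2 to 15 higher, 8 to 23 lower and medians of -0.34 to 0.00422 (large) and -0.23 to 0.25 (small). In WT it gave 9 to 21 higher, 7 to 11 lower and medians of -0.0148 to 0.247 (large) and 0.0891 to 0.307 (small). Leaving out KO total RNA library 1 and WT total RNA libraries 2 and 3 together, an alternative chosen after seeing the data, gave 8 higher and 6 lower in WT. Interaction medians with library size alone were -0.11 (large) and 0.0234 (small), and without a library -0.61 to -0.33 and -0.47 to -0.12.

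Replicate numbers were not taken to pair the libraries: deviations of same-numbered libraries correlated at 0.0914, -0.109 and -0.296 between KO and WT total RNA, at -0.0469 between KO and WT IP, and, between IP and total RNA, at 0.126 and 0.150 in KO and 0.107 and 0.0947 in WT. With the replicate block, IP minus total RNA gave 10 higher and 17 lower in KO and 17 higher and 8 lower in WT, 0 members passed in total RNA, the IP and the interaction, and 26 of 76 (total RNA), 55 of 72 (IP) and 61 of 76 (interaction) were below 0. DESeq2 gave no adjusted p for 63 of 72 members in the IP comparison. KO IP library 1, at 917462 counts, limits what the IP can show: 3 counts are 3.27 CPM there.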
